A study of Mus musculus with 8 samples.

Results

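The genes described here encode integrins, laminins and the proteins that tie integrins to the actin skeleton. They were chosen by symbol: every integrin alpha or beta chain gene in the table except Itgam, every laminin alpha, beta or gamma chain gene, and Ptk2, Pxn, Tln1, Vcl, Zyx, Ilk, Parva, Fermt2 and Actn1. This gave 47 of the 55414 genes counted, of which 17 encode integrin alpha chains, 9 beta chains, 11 laminin chains and 9 adhesion plaque proteins. The last, Itgbl1, shares EGF-like repeats with the beta chains but is not a receptor subunit.

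Integrins are receptors made of 1 alpha and 1 beta chain that span the cell membrane and hold cells to the matrix or to other cells. Laminins are cross-shaped trimers of an alpha, a beta and a gamma chain, and they form the sheet-like basement membrane that surrounds enteric ganglia. Inside the cell, talin, kindlin and the complex of integrin-linked kinase and parvin bind the integrin tail, while vinculin, zyxin and alpha-actinin join it to actin, and paxillin and focal adhesion kinase pass on the signal. In mice, neural crest cells that lack Itgb1 colonise the gut incompletely and leave part of the colon without ganglia.

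RNA was sequenced from 4 libraries of Emb knockdown mice and 4 libraries of wild-type (WT) mice, all aged 4 weeks. Each library was made with a Smart-seq kit from a tube of about 250 cells, sorted from dissociated colon with antibodies to CD24 and CD56 and labelled as enteric neurons. Emb encodes embigin, an adhesion glycoprotein that accompanies monocarboxylate transporters, and the study's title names the development of enteric neurons as its subject. The labels give neither the strain nor the means by which Emb was lowered, and do not tie each tube to 1 mouse, so the spread between libraries may be partly technical.

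The libraries held 2024372 to 2712754 counts in Emb knockdown and 698930 to 954191 in WT, and Rn18s-rs5, a ribosomal RNA gene, took 29.2% to 42.5% of them in Emb knockdown and 3.55% to 12.999% in WT. Emb had 5, 25, 3 and 5 counts in Emb knockdown replicates 1 to 4, against 4, 6, 22 and 16 in WT replicates 1 to 4 (log2 fold change -1.24 ± 0.82 SE; edgeR adjusted p = 0.529), so lower Emb was not detectable at this depth. The 15 enteric neuron markers on the list used here summed to 255 to 534 CPM (counts scaled to library size, with TMM normalisation) in Emb knockdown and 278 to 498 CPM in WT. None of the 15 was at 0 in a whole group, but some defining ones were scarce: Tubb3, a neuronal tubulin, had 2 to 11 counts in Emb knockdown and 0 to 8 in WT, and Snap25, a synaptic protein, had 1 to 15 counts in Emb knockdown and 1 to 20 in WT. Elavl3, a neuronal RNA-binding protein, had 139 to 187 counts in Emb knockdown and 131 to 209 in WT. Scaled to library size, that was 75.1 to 117 CPM in Emb knockdown and 151 to 270 CPM in WT, without overlap. Uchl1, another abundant marker, had 326, 56.2, 86.5 and 0 CPM in Emb knockdown replicates 1 to 4 and 2.81 to 29.9 CPM in WT. Of the 15 markers, 7 had a higher mean in Emb knockdown. The macrophage list summed to 4543 to 7030 CPM in Emb knockdown and 2960 to 9133 CPM in WT. Itgam is on that list and gave 138 to 632 CPM of these sums in Emb knockdown and 1405 to 5765 CPM in WT. In sorted pools of this kind, fewer cells of a type and less RNA per cell cannot be told apart.

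The adhesion genes were counted modestly in every library. Together the 47 members took 0.190% to 0.356% of the counts outside ribosomal RNA in Emb knockdown and 0.136% to 0.165% in WT, so the groups did not overlap on that base. Over all counts they did: Emb knockdown replicate 2 held 3128 member counts of 2712754, and WT replicate 3 held 1410 of 954191. Itga6 gave 2343 of the 5610 member counts in Emb knockdown replicate 1, and Actn1 2035 of the 4319 in replicate 4. Of the members, 39 to 42 reached 10 counts in Emb knockdown libraries and 26 to 34 in WT libraries. To place the levels, each member's counts per kilobase of exon were set over the same quantity for 1505 olfactory, vomeronasal and trace amine receptor genes, which the colon is not known to use widely. By this measure the median member lay at 1.98 to 3.24 times the receptor-gene background in Emb knockdown and 1.13 to 2.04 times in WT. The median protein-coding gene lay at 1.42 to 1.76 times in Emb knockdown and 0.715 to 1.17 times in WT. Between 48.9% and 70.2% of the members lay above 2 times the background in Emb knockdown, and 31.9% to 51.1% in WT. Of protein-coding genes, 36.8% to 45.7% did so in Emb knockdown and 25.0% to 33.6% in WT. Only 2 members, Itgb1 and Actn1, lay above 2 times the background in all 8 libraries, and every other member lay at or under 2 times it in at least 1 library.

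**Figure D1:**
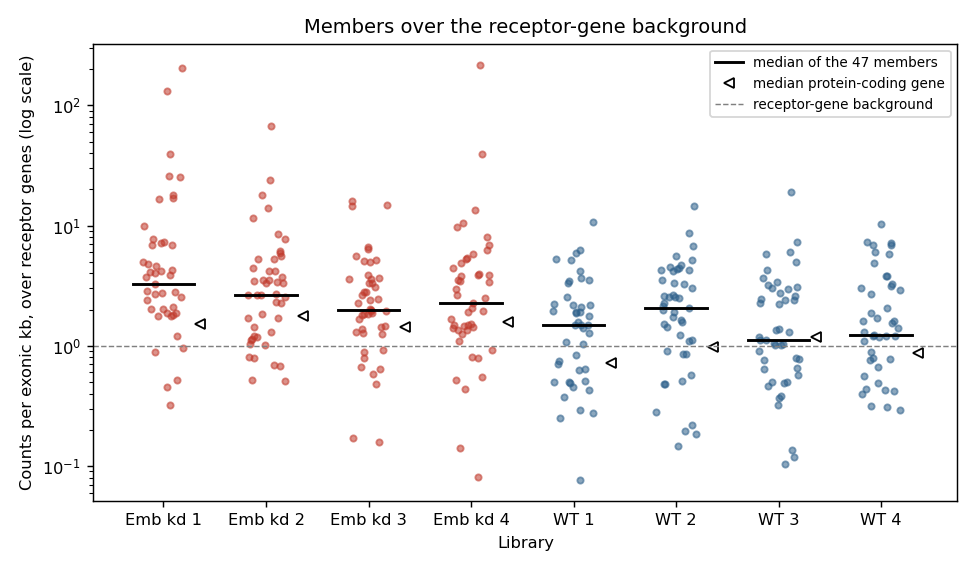
Counts per exonic kilobase of each member over those of the receptor genes (log axis), by library, with Emb knockdown on the left. Bars mark the median member, at 1.98 to 3.24 in Emb knockdown and 1.13 to 2.04 in WT, open triangles the median protein-coding gene and the dashed line the background; members at 0 are not drawn.

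Ordered by mean CPM per exonic kilobase over all 8 libraries, the 10 highest members were Actn1, Itga6, Itgb1, Itgb2, Lamc1, Itgb4, Lamb2, Lama5, Itga3 and Tln1. The means of Actn1 (34.2 CPM per kilobase) and Itga6 (24.8) rest on 1 library each, which held 94.7% of the Emb knockdown CPM of Actn1 and 92.4% of that of Itga6. By the median over the 8 libraries, which such a library cannot lift, Itgb1 led with 12.4 CPM per kilobase, followed by Lamc1 with 7.49, Itgb4 with 7.12, Actn1 with 6.86 and Lama5 with 5.89. The last 4 of these overlap library by library, so their order is not separated by these data. Itgb1 is the beta chain shared by most integrins of neural cells, and Lamc1 the gamma chain of most laminins.

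No member passed the threshold between genotypes. Of the 47 members, 43 passed the filter on low counts, and 0 of them had an edgeR adjusted p under 0.05, as did 0 of the 11353 genes tested (0%). The lowest adjusted p among the members was 0.295. At an unadjusted p under 0.05, 10 of the 43 were higher in Emb knockdown (23.3%, against 8.64% of all genes tested) and 1 was lower (2.33%, against 4.64%). The 10 were Itga6, Itga2, Itga1, Itgb2, Itgb8, Itgb1, Lamb2, Lamb1, Lama3 and Actn1, and the lower one was Ptk2. On the same counts the DESeq2 Wald test called 8 members at an adjusted p under 0.05, 7 higher (16.3%) and 1 lower (2.33%). Of all genes it called 6.6%, on a base that includes genes given no adjusted p. The members were Itga2, Itgb1, Itgb2, Itgb8, Lama3, Lamb1 and Lamb2, higher, and Ptk2, lower. DESeq2 gave no adjusted p for the named members Actn1, Itga6, Lama1 and Vcl, so it did not judge them at that threshold. Limma voom called 0 members. With no filter on low counts edgeR called 4 of 46 members (against 1.88% of all genes): Actn1, Itga6, Itgb2 and Lamb2, all higher.

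The count of 10 depended on the scaling and on single libraries. It was 4 without Emb knockdown replicate 1 (6.95% of all genes were higher there) and 6 without WT replicate 3 (7.14% of all genes). With library totals alone it was 3, and 9 members were lower; of all genes 3.30% were higher and 15.01% lower there, and their median lay at -0.67. The median log2 fold change of the 43 members was 0.44, against 0.04 over all genes tested; with single libraries left out it was 0.04 (Emb knockdown replicate 4) and 0.20 (Emb knockdown replicate 3, or WT replicate 3). Scaled to library totals or to the receptor genes, it was -0.18 and 1.02, which is 0.49 and 0.37 above the median of all genes under the same scaling. Counted by medians instead, 23 of the 43 members had a higher median CPM in Emb knockdown (53.5%, against 52% of all genes tested). Of the 43, 16 reached the filter's level in all 8 libraries, 5 in all Emb knockdown libraries but not all WT ones, 8 in all WT libraries but not all Emb knockdown ones, and 14 in neither whole group. Itga2, Itgb2 and Lamb1, counted above as higher, are among the 5, and Ptk2, counted as lower, is among the 8. These members reached the filter's level throughout only in the group where they are high, so the counts by direction are not free of the filter.

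**Figure D2:**
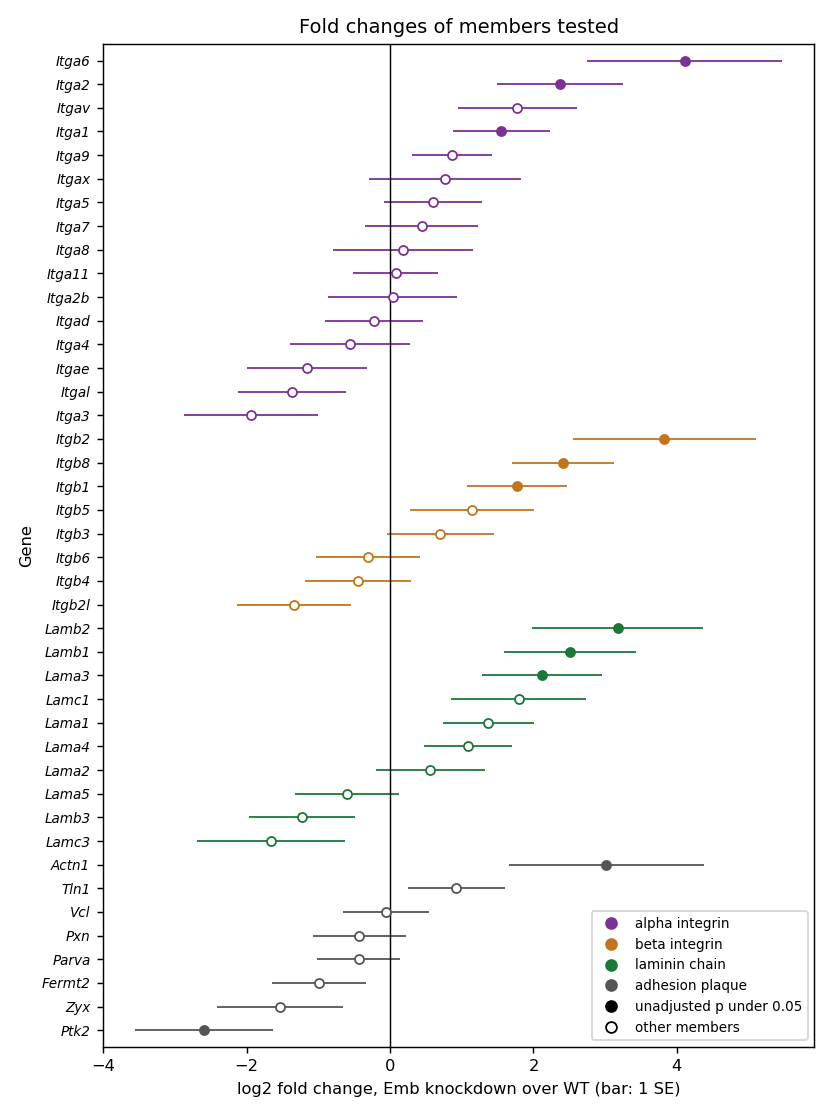
Log2 fold changes of 42 members tested, Emb knockdown over WT, from edgeR with bars of 1 SE, ordered by role and value; filled points have an unadjusted p under 0.05. The filled points comprise 10 members on the right and Ptk2 on the left, and 17 of the members drawn lie below 0.

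The groups did not overlap in 3 members, all higher in Emb knockdown (6.98% of those tested, against 4.03% of all genes), and no member lay wholly below WT (0%, against 4.25%). These were Itgb8, Itgb1 and Itga1. Itgb8 (chromosome 12, 119158022 to 119238802, minus strand, GRCm38) encodes the beta chain that pairs with the alpha v chain and frees TGF-beta from its latent complex. Its level was 35.98, 122, 19.5 and 29.4 CPM in Emb knockdown replicates 1 to 4 and 14.2, 9.20, 8.37 and 7.03 CPM in WT replicates 1 to 4. All WT libraries held less Itgb8 than any Emb knockdown library, and per kilobase each lay under the receptor-gene background, at 0.423 to 0.752 times, against 1.43 to 11.5 times in Emb knockdown. Itgb8 had a log2 fold change of 2.41 with an SE of 0.71 and a 95% interval from 0.84 to 3.97 (edgeR unadjusted p = 0.00590, adjusted p = 0.295), and of 1.56 without Emb knockdown replicate 2. Of the members, it was the only one with an unadjusted p under 0.05 in the main fit and all 17 alternatives run.

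Itgb1 (chromosome 8, 128685654 to 128733200, plus strand) had 86.6, 262, 80.5 and 57.6 CPM in Emb knockdown replicates 1 to 4, against 43.7, 19.5, 37.3 and 42.2 CPM in WT replicates 1 to 4. Every Emb knockdown library lay above every WT library, with the closest pair at 57.6 and 43.7 CPM, and Emb knockdown replicate 2 stood far above its group. The log2 fold change was 1.77 ± 0.69 (edgeR adjusted p = 0.322), and 1.09 without Emb knockdown replicate 2. Itga1 (chromosome 13, 114953096 to 115101964, minus strand), the alpha chain that joins Itgb1 to form a receptor for collagens and laminins, had 281, 94.9, 145 and 66.4 CPM in Emb knockdown and 60.5, 58.6, 33.5 and 47.8 CPM in WT. Here too the groups were apart, by a narrow gap, 66.4 CPM in the lowest Emb knockdown library and 60.5 CPM in the highest WT library. Itga1 had a log2 fold change of 1.55 ± 0.67 (edgeR adjusted p = 0.356). Of these 3 genes, only Itgb8 stayed apart from WT with library totals alone, where Itgb1 had a log2 fold change of 1.02 and Itga1 of 0.80.

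**Figure D3:**
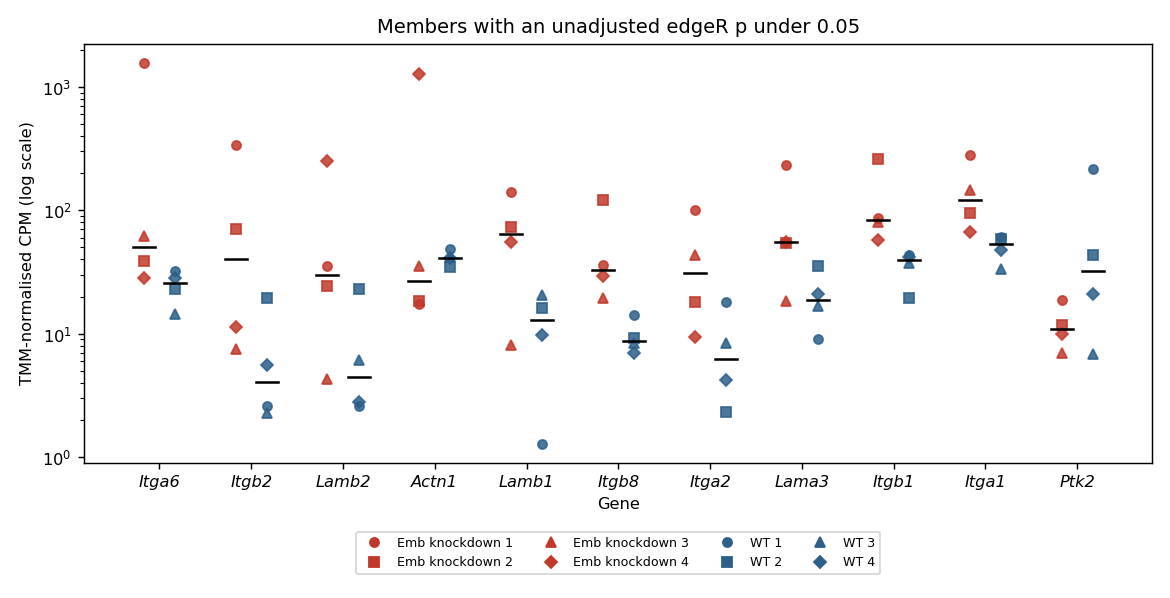
TMM-normalised CPM (log axis) of the 11 members with an unadjusted p under 0.05, with Emb knockdown libraries left of WT libraries, marker shapes for replicate numbers and bars at the medians. Itgb8, Itgb1 and Itga1 show no overlap, while Itga6 in Emb knockdown replicate 1 (1561 CPM) and Actn1 in Emb knockdown replicate 4 (1275 CPM) stand far above all other libraries.

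The RefSeq promoter windows (250 bases before to 50 after a start, GRCm38.p6) of these 3 genes are shown because they were the members whose groups did not overlap. Windows were found for 30 of the 47 members. Capitals mark a GC box (GGGCGG on either strand), a short element bound by Sp1-type factors.
Itgb1, chr8:128685404-128685703, plus strand: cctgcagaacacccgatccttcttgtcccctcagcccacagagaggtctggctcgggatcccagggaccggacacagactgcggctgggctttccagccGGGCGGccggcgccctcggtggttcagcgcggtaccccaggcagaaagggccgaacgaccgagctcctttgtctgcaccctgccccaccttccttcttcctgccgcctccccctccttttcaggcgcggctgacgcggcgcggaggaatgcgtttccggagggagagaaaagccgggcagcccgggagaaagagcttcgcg
Itga1, chr13:115101915-115102214, minus strand: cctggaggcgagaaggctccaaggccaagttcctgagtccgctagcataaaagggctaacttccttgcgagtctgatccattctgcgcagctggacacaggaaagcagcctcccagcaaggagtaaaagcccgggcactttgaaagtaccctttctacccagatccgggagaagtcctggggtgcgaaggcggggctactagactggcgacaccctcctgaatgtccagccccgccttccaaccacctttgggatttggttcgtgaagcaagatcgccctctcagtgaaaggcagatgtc
Itgb8, chr12:119238227-119238526, minus strand: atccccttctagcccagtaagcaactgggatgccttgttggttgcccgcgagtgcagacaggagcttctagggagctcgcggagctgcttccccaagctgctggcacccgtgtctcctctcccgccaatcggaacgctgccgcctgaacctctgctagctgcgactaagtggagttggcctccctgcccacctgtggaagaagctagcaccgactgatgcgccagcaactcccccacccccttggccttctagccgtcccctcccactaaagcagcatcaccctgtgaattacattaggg
The Itgb1 window holds 1 GC box and the other windows printed hold none. Over the members a GC box occurs in 17 of 34 windows (50%), against 35.7% of 32851 windows of all genes. The AP-1 motif TGANTCA, which reads the same on both strands, occurs in 4 of the 34 (11.8%), against 7.81% of all, and in none of the 3 printed; the TATA box TATAAA, on either strand, occurs in 0 of the 34, against 13.6% of all. A match is a description of letters, not a binding site.

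Among the integrin alpha chains, laminin receptor chains lay on both sides of 0. The collagen receptor chains tested lay above it, with Itga11 at only 0.08. Of 16 tested, 11 had a higher fitted level in Emb knockdown (51.6% of all genes did) and 5 a lower one. At an unadjusted edgeR p under 0.05, 3 were higher and 0 lower, against 8.64% and 4.64% of all genes. The median log2 fold change of the alpha chains was 0.31, and -0.30 with library totals alone. Itga6 (chromosome 2, 71745616 to 71858416, plus strand), a laminin receptor chain of neural and epithelial cells, had 1561, 38.7, 62.1 and 28.2 CPM in Emb knockdown replicates 1 to 4, against 32.2, 23.0, 14.5 and 28.1 CPM in WT. A single library carried most of it: Emb knockdown replicate 1 held 2343 counts of Itga6, and of the others replicates 2 and 3 lay above the WT range and replicate 4 within it. Its log2 fold change was 4.11 ± 1.36 (edgeR adjusted p = 0.304), and 0.83 without that library. Itga2, a collagen receptor chain, had 99.9, 18.0, 43.8 and 9.40 CPM in Emb knockdown and 18.0, 2.30, 8.37 and 4.22 CPM in WT (log2 fold change 2.37 ± 0.88, edgeR adjusted p = 0.315; 1.53 without Emb knockdown replicate 1). Itga3, another laminin receptor chain, was lower in value: it had 19.99, 10.1, 12.97 and 20.7 CPM in Emb knockdown, against 57.9, 13.8, 167 and 4.22 CPM in WT. The WT libraries of Itga3 ranged over both sides of all Emb knockdown libraries, and its log2 fold change was -1.94 ± 0.94 (edgeR adjusted p = 0.395), and -0.62 without WT replicate 3.

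Itgav, the alpha v chain that partners Itgb3, Itgb5, Itgb6 and Itgb8, had 29.3, 5.30, 35.1 and 91.5 CPM in Emb knockdown and 11.6, 8.05, 5.33 and 22.5 CPM in WT. Emb knockdown replicate 2, the library with most Itgb8, held the least Itgav. The log2 fold change of Itgav was 1.78 ± 0.83 (edgeR adjusted p = 0.379), and 1.00 without Emb knockdown replicate 4. The chains for fibronectin and related ligands, Itga4, Itga5 and Itga9, and the collagen receptor chain Itga11 had log2 fold changes of -0.56, 0.60, 0.87 and 0.08 with overlapping groups. Itga9 had 44.6, 30.7, 48.1 and 50.7 CPM in Emb knockdown and 28.3, 37.9, 15.2 and 14.1 CPM in WT. Itga7, Itga8 and Itga2b, the last a platelet chain, lay at 0.44, 0.18 and 0.03. Itga10, a collagen receptor chain that shares 33.5% of its exonic bases with another annotated gene, was not tested and had 0, 11, 2 and 33 counts in Emb knockdown and 2, 31, 25 and 0 in WT.

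The leukocyte integrins lay on both sides of 0. Itgb2, the beta chain of leukocyte integrins, had 339, 69.98, 7.57 and 11.3 CPM in Emb knockdown replicates 1 to 4, against 2.57, 19.5, 2.28 and 5.62 CPM in WT. Emb knockdown replicates 1 and 2 stood above all WT libraries and replicates 3 and 4 within the WT range (log2 fold change 3.82 ± 1.28, edgeR adjusted p = 0.304); without replicate 1 or replicate 2, Itgb2 no longer passed the filter and was not tested. Its alpha partners gave -1.38 for Itgal, 0.77 for Itgax and -0.23 for Itgad, all with overlapping groups and edgeR adjusted p of 0.448 to 0.922. Itgam, the remaining partner, lay the other way from Itgb2, at 138, 261, 632 and 543 CPM in Emb knockdown and 5061, 5765, 1405 and 2970 CPM in WT (log2 fold change -3.27 ± 0.75, edgeR adjusted p = 0.275). Itgae, which with Itgb7 binds E-cadherin, lay at -1.16, and Itgb7 itself was not tested, with 10, 4, 1 and 7 counts in Emb knockdown and 1, 1, 5 and 18 in WT. Of the 14 macrophage markers on the list used here, 10 had a higher mean in Emb knockdown. Their sums overlapped as given above, but those sums include Itgam, which gave 5061 of the 9133 CPM in WT replicate 1. Without Itgam, each Emb knockdown sum would lie above each WT sum. The abundant markers lay on both sides. C1qa, a complement component of macrophages, had 2812 to 5233 CPM in Emb knockdown and 510 to 2327 CPM in WT. Cx3cr1, a chemokine receptor of macrophages, had 7.02 to 682 CPM in Emb knockdown and 894 to 1539 CPM in WT, and Itgam, given above, is also on that list. The lymphocyte markers summed to 89.0 to 135 CPM in Emb knockdown and 70.8 to 144 CPM in WT. The part of other cells in the leukocyte integrin values was not tested.

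Of the 8 beta chains tested, 5 were higher (51.6% of all genes were) and 3 lower, and 7 of the 8 had a higher median in Emb knockdown (52% of all genes did). At an unadjusted edgeR p under 0.05, 3 were higher and 0 lower, against 8.64% and 4.64% of all genes. The median log2 fold change of the beta chains was 0.92, and 0.36 with library totals alone. Itgb4, the partner of Itga6 in hemidesmosomes, the anchoring junctions of epithelia, had 58.6, 57.3, 31.9 and 42.6 CPM in Emb knockdown and 63.0, 149, 34.2 and 12.6 CPM in WT, so the Emb knockdown values lay inside the WT range. In Emb knockdown replicate 1, where Itga6 reached 1561 CPM, Itgb4 stayed near its level in replicate 2. The log2 fold change of Itgb4 was -0.45 ± 0.73 (edgeR adjusted p = 0.837), 0.44 without WT replicate 2 and 0.20 when scaled to the receptor genes. Itgb3, Itgb5 and Itgb6 had log2 fold changes of 0.70, 1.15 and -0.31, and Itgb2l, a relative of Itgb2, -1.34. Itgb5 reached 65.4 CPM in Emb knockdown replicate 3 and 5.83 to 12.7 CPM in the other Emb knockdown libraries, against 6.09 to 16.9 CPM in WT. Itgbl1 had at most 12 counts in any library and was not tested.

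Laminin chains summed to 798, 438, 476 and 632 CPM in Emb knockdown replicates 1 to 4 and 229, 403, 333 and 343 CPM in WT replicates 1 to 4, which did not overlap. With library totals alone the sums overlapped, at 304 to 461 CPM in Emb knockdown and 242 to 459 CPM in WT. All 11 chains were tested, 7 with a higher fitted level (51.6% of all genes had one) and 4 with a lower one. Their median log2 fold change was 1.08, and 0.42 with library totals alone. At an unadjusted edgeR p under 0.05, 3 were higher and 0 lower, against 8.64% and 4.64% of all genes. The fibroblast markers on the list used here also stood apart, at 292 to 530 CPM in Emb knockdown and 121 to 289 CPM in WT, with 5 of the 10 having a higher mean in Emb knockdown. Col1a1, a collagen chain and the most abundant of them, had 65.4 to 344 CPM in Emb knockdown and 24.4 to 139 CPM in WT. Their part in the laminin values was not tested.

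The beta chains Lamb1 and Lamb2 and the gamma chain Lamc1 enter most basement membrane laminins. Lamb1 had 141, 73.2, 8.11 and 55.8 CPM in Emb knockdown, against 1.29, 16.1, 20.5 and 9.84 CPM in WT. Emb knockdown replicate 3 lay inside the WT range and the other 3 lay above it (log2 fold change 2.51 ± 0.92, edgeR adjusted p = 0.312). Lamb2, on chromosome 9, had 35.3, 24.4, 4.32 and 252 CPM in Emb knockdown and 2.57, 23.0, 6.09 and 2.81 CPM in WT (3.17 ± 1.19, edgeR adjusted p = 0.320; 1.29 without Emb knockdown replicate 4). Lamc1 had 275, 112, 149 and 16.9 CPM in Emb knockdown and 27.0, 31.0, 92.8 and 7.03 CPM in WT. In both groups replicate 4 held the least Lamc1, and the groups overlapped (1.80 ± 0.94, edgeR adjusted p = 0.427; 2.73 when WT replicate 3 was left out and 1.19 when Emb knockdown replicate 1 was). The high libraries thus differed by chain: Emb knockdown replicate 1 for Lamb1 and Lamc1, replicate 4 for Lamb2.

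The alpha chains, which set what a laminin binds, were uneven. Lama5, a widespread alpha chain and the laminin gene with most counts in 3 WT libraries, had 17.3, 67.3, 50.3 and 125 CPM in Emb knockdown and 66.9, 94.3, 58.6 and 176 CPM in WT (log2 fold change -0.60 ± 0.72, edgeR adjusted p = 0.761; -0.27, -1.11 and -0.11 when Emb knockdown replicate 1, Emb knockdown replicate 4 or WT replicate 4 was left out). Lama1, an early basement membrane chain, was scarce at 20.7, 21.2, 27.0 and 8.14 CPM in Emb knockdown and 11.6, 6.90, 6.85 and 4.22 CPM in WT. Only Emb knockdown replicate 4 entered the WT range of Lama1 (1.37 ± 0.64, edgeR adjusted p = 0.378), and every WT library held less of it per kilobase than the receptor genes. Lama4, a chain of vessels and muscle, had 27.3, 38.2, 24.9 and 50.7 CPM in Emb knockdown and 7.72, 21.8, 9.13 and 28.1 CPM in WT (1.08 ± 0.61). Lama2, a chain of muscle and peripheral nerve, reached 133 CPM in Emb knockdown replicate 3 and lay at 17.5 to 28.0 CPM in the other Emb knockdown libraries, against 21.8 to 60.5 CPM in WT (0.56 ± 0.76). Lama3, an alpha chain of epithelia, had 232, 54.6, 18.4 and 55.1 CPM in Emb knockdown and 9.01, 35.6, 16.7 and 21.1 CPM in WT (2.12 ± 0.83, edgeR adjusted p = 0.323; 1.05 without Emb knockdown replicate 1). Lamb3, a beta chain of epithelia, had 6.66, 9.01, 27.0 and 10.7 CPM in Emb knockdown and 5.15, 50.6, 37.3 and 32.3 CPM in WT (-1.23 ± 0.74, edgeR adjusted p = 0.493). Epithelial markers summed to 152 to 280 CPM in Emb knockdown and 246 to 398 CPM in WT. Lamc3, a gamma chain of the nervous system and retina, had 2.66 to 16.9 CPM in Emb knockdown and 23.2, 78.2, 28.9 and 0 CPM in WT. The last value lies under the Emb knockdown range and the others above it (-1.66 ± 1.04, edgeR adjusted p = 0.507).

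**Figure D4:**
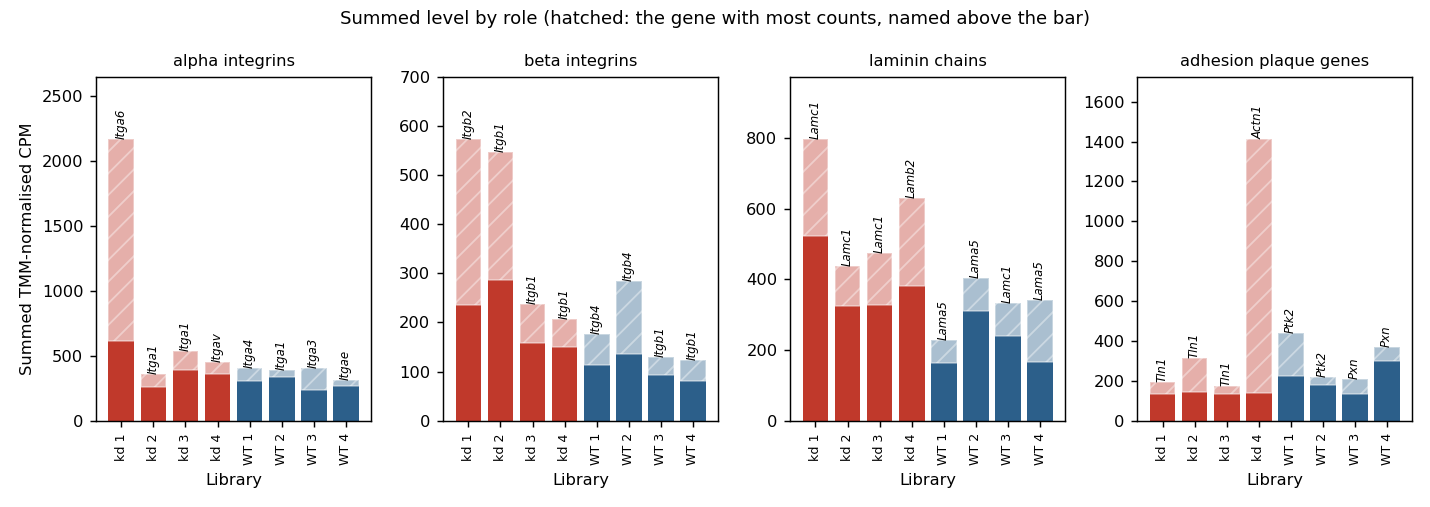
Summed TMM-normalised CPM of integrin alpha chains, beta chains, laminin chains and adhesion plaque genes in each library, Emb knockdown (kd) left of WT; the hatched part is the gene with most counts, named above. Itga6 made up 71.9% of the alpha chain sum in Emb knockdown replicate 1 and Actn1 90.2% of the plaque sum in Emb knockdown replicate 4.

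Of the 8 adhesion plaque members tested, 2 were higher in Emb knockdown (51.6% of all genes were) and 6 lower. At an unadjusted edgeR p under 0.05, 1 was higher and 1 lower, against 8.64% and 4.64% of all genes. Among these members, only Tln1 had a higher median in Emb knockdown than in WT (52% of all genes did). Their median log2 fold change was -0.43 (-1.12 with library totals alone and 0.17 when scaled to the receptor genes, 0.45 and 0.48 under the median of all genes). The plaque members summed to 173 to 1413 CPM in Emb knockdown and 207 to 440 CPM in WT. Without the gene with most counts in each library, which is not the same gene in all, the sum was 133 to 144 CPM in Emb knockdown and 134 to 297 CPM in WT. Smooth muscle markers, whose cells are rich in plaque proteins, summed to 95.3 to 123 CPM in Emb knockdown and 86.2 to 153 CPM in WT.

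Ptk2 (chromosome 15, 73205102 to 73423280, minus strand) encodes focal adhesion kinase, the tyrosine kinase of the plaque. It had 18.7, 11.7, 7.02 and 10.02 CPM in Emb knockdown replicates 1 to 4 and 216, 43.7, 6.85 and 21.1 CPM in WT replicates 1 to 4. WT replicate 1 stood far above, and WT replicate 3 held no more Ptk2 than the Emb knockdown libraries. The log2 fold change was -2.59 ± 0.96 (edgeR unadjusted p = 0.0202, adjusted p = 0.314), and -0.93 without WT replicate 1. Actn1 (chromosome 12, 80167547 to 80260371, minus strand), the actin cross-linker alpha-actinin of non-muscle cells, had 17.3, 18.6, 35.1 and 1275 CPM in Emb knockdown, against 48.9, 34.5, 41.8 and 40.8 CPM in WT. Apart from replicate 4, with 2035 counts, the Emb knockdown libraries of Actn1 lay at the lower end of the WT range or under it, and the SD in WT was 5.90 CPM. The log2 fold change was 3.02 ± 1.36 (edgeR adjusted p = 0.372) with all libraries and -0.79 without Emb knockdown replicate 4, so 1 library set its direction.

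Tln1, talin, which switches integrins on by binding the beta tail, had 59.3, 169, 40.0 and 40.1 CPM in Emb knockdown and 42.5, 43.7, 20.5 and 56.2 CPM in WT. Its highest library, Emb knockdown replicate 2, was also the highest for Itgb1 and Itgb8 (log2 fold change of Tln1 0.92 ± 0.68, edgeR adjusted p = 0.574; 0.22 without that library). Vcl, vinculin, was the plaque gene nearest to 0, with 14.0, 7.95, 19.99 and 12.5 CPM in Emb knockdown and 9.01, 18.4, 9.89 and 19.7 CPM in WT (-0.06 ± 0.60, edgeR adjusted p = 0.980), and its sign turned with the scaling, at 0.51 when scaled to the receptor genes. The 95% interval of Vcl ran from -1.37 to 1.26, so changes of either sign within it were not detectable. Fermt2, the kindlin of most tissues, had 34.0, 16.97, 8.11 and 8.14 CPM in Emb knockdown and 30.9, 32.2, 17.5 and 53.4 CPM in WT (-0.99 ± 0.66), and with library totals alone was the 1 member wholly below WT. Zyx, zyxin, had 18.7, 5.83, 8.65 and 6.27 CPM in Emb knockdown and 33.5, 1.15, 21.3 and 59.0 CPM in WT (-1.53 ± 0.88). Pxn, paxillin, and Parva, alpha-parvin, lay at -0.43 and -0.44, and the edgeR adjusted p of these 4 genes ran from 0.470 to 0.823. Ilk, integrin-linked kinase (chromosome 7, 105736592 to 105742925), had 0 counts in every library. Of its 2744 exonic bases, 89.7% are shared with Taf10 and Rrp8 on the opposite strand, and no source used here says whether reads were counted by strand. Taf10 had 1 to 9 counts in Emb knockdown and 0 to 10 in WT, and Rrp8 had 267, 48, 4 and 12 counts in Emb knockdown and 0, 2, 8 and 0 in WT. The part of this overlap in the values of Ilk was not tested. Vcl shares 25.5% of its exonic bases with Ap3m1 on the opposite strand. In all, 16 members share exonic bases with another annotated gene, and apart from Ilk, Itga10, Vcl and Itgad (19.7%) the share is at most 8.15%.

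**Figure D5:**
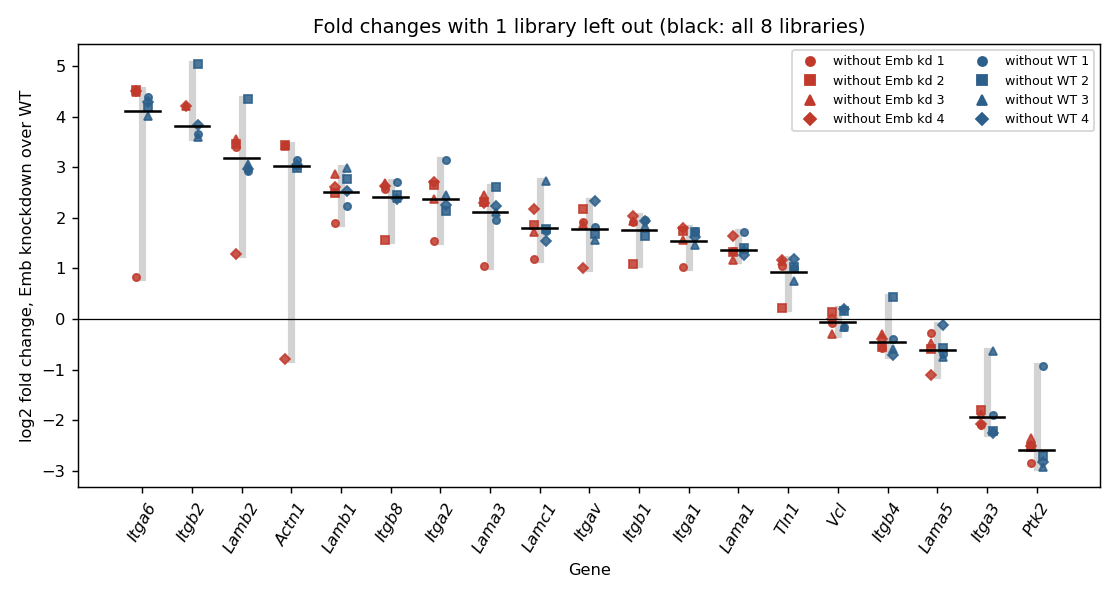
Log2 fold changes (Emb knockdown over WT) of the 19 named members that were tested, with all 8 libraries (black bars) and with each library left out (points; grey bars span them). Actn1 moved to -0.79 without Emb knockdown replicate 4 and Itga6 to 0.83 without Emb knockdown replicate 1; Itgb2 has no point without Emb knockdown replicate 1 or 2, where it was not tested.

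Other genes of the adhesion pathway were mixed. Of 41 further plaque genes listed, 40 were tested, 23 with a higher fitted level (51.6% of all genes had one) and 17 with a lower one. Their median log2 fold change was 0.20, and -0.57 with library totals alone. At an unadjusted edgeR p under 0.05, 4 were higher and 2 lower, shares near the 8.64% and 4.64% of all genes. Fermt1, the kindlin of epithelia, had 337, 31.3, 15.7 and 18.2 CPM in Emb knockdown and 7.72, 1.15, 1.52 and 8.43 CPM in WT. All Emb knockdown libraries of Fermt1 lay above WT, the first by far (4.44 ± 1.23, edgeR adjusted p = 0.294; 2.27 without Emb knockdown replicate 1). Vasp, a promoter of actin growth at adhesions, had 63.3, 145, 177 and 219 CPM in Emb knockdown and 1630, 323, 415 and 715 CPM in WT, again without overlap (-2.35 ± 0.79, edgeR adjusted p = 0.304). Tns3, a tensin that links integrin tails to actin, lay at 1.68 ± 0.64 (edgeR adjusted p = 0.320) and Rac1, the GTPase of membrane ruffles, at 2.75 ± 1.11 (edgeR adjusted p = 0.329; 4.32 without WT replicate 2).

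Of 25 matrix ligands and basement membrane genes, 22 were tested, 12 higher (51.6% of all genes were) and 10 lower. Their median was 0.05, and -0.58 with library totals alone. At an unadjusted edgeR p under 0.05, 2 were higher and 3 lower, against 8.64% and 4.64% of all genes. Nid1, nidogen, which clamps laminin to collagen IV, had 98.6, 240, 92.9 and 76.4 CPM in Emb knockdown and 46.3, 33.3, 17.5 and 32.3 CPM in WT, without overlap (1.97 ± 0.66, edgeR adjusted p = 0.308). Fn1, fibronectin, went the other way, with 20.7, 26.0, 23.8 and 7.52 CPM in Emb knockdown and 47.6, 57.5, 80.6 and 42.2 CPM in WT, also without overlap (-1.54 ± 0.59, edgeR adjusted p = 0.320). Agrn, agrin, a proteoglycan of basement membranes and synapses, lay at 2.49 ± 0.96 (edgeR adjusted p = 0.322; 1.30 without Emb knockdown replicate 3), and Mfge8, a secreted ligand of alpha v integrins, at -2.07 ± 0.75 (edgeR adjusted p = 0.311). Among 15 laminin receptors outside the integrin family and their partners, 11 were tested, 9 higher (51.6% of all genes were) and 2 lower. Their median was 0.65, and -0.03 with library totals alone. At an unadjusted edgeR p under 0.05 there were 0 in either direction, against 8.64% and 4.64% of all genes. The syndecans Sdc4 and Sdc2, heparan sulfate co-receptors, lay at 1.45 ± 0.76 and -1.26 ± 0.68. Dmd, dystrophin, lay at 1.07 ± 0.60 (0.65 without Emb knockdown replicate 1). Dag1, dystroglycan, the main laminin receptor besides the integrins, lay at 1.67 ± 1.16 (edgeR adjusted p = 0.550) and at -0.97 without Emb knockdown replicate 2, which held 419 CPM against 8.65 to 35.98 CPM in the other Emb knockdown libraries and 18.3 to 75.9 CPM in WT.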

How the data were processed

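The table the authors deposited holds raw, whole-number counts for every gene in 8 libraries. Cutadapt and the build mm10 are named per the submitters' processing notes. No source used here names the aligner, counter, strand setting or annotation. Exon lengths and coordinates came from GENCODE M21 (GRCm38), which held 52133 of the 55414 identifiers and all members; promoter windows came from RefSeq. Genes were filtered with filterByExpr (minimum count 10, minimum total 15), scaled with TMM and tested with edgeR 4.0.16 (R 4.3.3) quasi-likelihood models with genotype as the only term. P-values were adjusted by Benjamini-Hochberg over 11353 genes, with a threshold of 0.05. SEs were derived from the fold change and the F statistic. Depth was 698930 to 2712754 counts per library; no molecular identifiers are described, so amplified copies of 1 molecule may be counted repeatedly. Alternatives were 3 other scalings, 2 other filters, DESeq2 1.42.0, limma 3.58.1 voom, thinning, a replicate block and leaving out each library. Named members are 9 fixed by role, the 12 with the smallest p and the 10 with the highest level per kilobase; from each further list the 4 genes with the smallest p are named. Members, lists and tests were chosen with earlier results of these data known. Some values, including those of 1 member counted above, are not reported here.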

Additional observations from a re-analysis of the deposited data

Results flagged for a closer look

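In 6 of the 38 groups of 4 libraries looked at among the named members, 1 library stood farther from the nearest other than Dixon's gap limit for 4 values allows; chance marks about 1 in 20 groups of normal values. That rate does not carry over here, since CPM are skewed and some of these genes were named for a high mean or a small p, which 1 high library can bring. All 6 were high values in Emb knockdown. Actn1 stood at 1275 CPM in Emb knockdown replicate 4, against 17.3 to 35.1 CPM in the other Emb knockdown libraries, and Lamb2 in the same library at 252 CPM, against 4.32 to 35.3 CPM. Itga6 stood at 1561 CPM in Emb knockdown replicate 1, against 28.2 to 62.1 CPM. In Emb knockdown replicate 2, Itgb1 stood at 262 CPM, against 57.6 to 86.6 CPM, Tln1 at 169 CPM, against 40.0 to 59.3 CPM, and Itgb8 at 122 CPM, against 19.5 to 35.98 CPM.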

How the results depend on the processing

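The sign of the fold change was kept by 16 of the 19 named members tested under every alternative in which they were tested; the cause of the changes below was not tested, beyond the fewer genes tested or other scaling that an alternative brings. Library totals alone gave 2 genes called and a member median of -0.18. At an unadjusted edgeR p under 0.05, 3 members were higher and 9 lower there, against 3.30% and 15.01% of all genes. Without overlap, 1 member lay above WT and 1 below under that scaling. Scaling to the receptor genes gave 15 of 43 members higher and 0 lower at that threshold, against 18.1% and 1.24% of all genes. It also gave a median of 1.02, 7 members above WT, and log2 fold changes of 0.20 for Itgb4 and 0.51 for Vcl. With no filter there were 910 genes (1.88%) and 4 of 46 members called, 5 members above WT, and Vcl lay at 0.18. At an unadjusted edgeR p under 0.05, 12 members were higher and 2 lower there, against 7.06% and 4.19% of all genes. DESeq2 called 749 genes (6.6%) and 8 members. At an unadjusted DESeq2 p under 0.05, 11 members were higher and 3 lower, against 10.5% and 7.58% of all genes. Limma voom gave 3 members higher and 0 lower, against 5.84% and 4.39% of all genes, a median of 0.16, and 0.00715 for Itgb4. Thinning to 598197 counts outside ribosomal RNA gave 1 gene called. The replicate block gave 4 members higher and 0 lower, against 5.54% and 2.55% of all genes, and a median of 0.11. Same-numbered deviations correlated at only 0.012 to 0.033. Each WT library correlated most with the Emb knockdown library of its number, but replicate 3 of Emb knockdown correlated more with another number. Correlations this weak cannot settle whether the numbers pair the libraries. With 1 library left out, genes called and members called stayed at 0, and the member median ran from 0.044 to 0.52. Members higher ran from 4 to 10 and lower from 1 to 4, against 6.77% to 9.77% and 3.28% to 4.76% of all genes. Members above WT ran from 3 to 7 and below from 0 to 3. Log2 fold changes then ran from -0.79 to 3.43 for Actn1, -0.71 to 0.44 for Itgb4, -0.29 to 0.20 for Vcl and -0.97 to 2.34 for Dag1. Shares of all genes without overlap are not given for the alternatives, so those member counts are values only.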
